A study of Rattus norvegicus with 16 samples.

Results

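The genes described here are Fgl1 and 9 secreted acute phase proteins (Orm1, Crp, Lbp, Hp, Cp, A2m, Fga, Fgb and Fgg), 10 of the 26913 genes or probe names on the array. They were chosen by name, with earlier results of these data known, so their values are no independent test. Their probes were found through the accession that each probe carries. All 10 had a probe and all 10 passed the filter on dim probes, among 11091 features tested. The tissue was liver of adult male Sprague-Dawley rats aged 78 to 86 days. MM rats were sons of dams that were dosed daily, at 1 mg per kg, with PCBs, methylmercury and organochlorine pesticides in 1 mixture, and their litters were fostered between exposed dams. M rats had the same exposure and stayed with their mothers. CC rats came from dams given corn oil, with litters fostered between control dams, and C rats came from corn oil dams and were not fostered. Dosing ran from gestation day 0 to postnatal day 20, so all rats were examined weeks after it ended. Each group had 4 arrays of 2 pooled rats each, taken from 8 pups. For the M arrays 1 label field names a control, while the title and the treatment field give the exposure, and they were read as exposed.

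Each array held liver RNA in the red dye and a reference RNA from 14 rat cell lines in the green dye, with no dye swap. Values are log2 ratios of liver over reference unless the liver or the reference channel is named. MM and M lay on 1 slide and CC and C on the other, so exposure and slide cannot be told apart, whereas each fostering comparison lay within a slide. Between 35.0% and 41.9% of probes per array were well above background in liver. The 15 hepatocyte markers, among them albumin, had mean liver levels of 13.39 to 13.58 in MM, 13.45 to 13.63 in M, 13.44 to 13.62 in CC and 13.31 to 13.59 in C (log2), and all 15 passed the filter. The 15 tested Kupffer cell and macrophage markers lay at 8.05 to 8.62, 8.32 to 8.50, 8.16 to 8.45 and 8.10 to 8.57 in the same groups. Only 2 of 15 neutrophil markers passed. M replicate 8, high for many of the genes below, and MM replicate 3, whose median variation between spots of a probe was 40.0% in liver against 9.54% on the best array, stood apart, and differences they move by over 1.5 times are given with and without them where a result turns on them. In whole liver, fewer cells of a type and less RNA per cell cannot be told apart.

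Acute phase proteins are plasma proteins whose output by hepatocytes changes in inflammation. Interleukin-6 acts through the IL-6 receptor, gp130 and STAT3, while interleukin-1 acts through NF-kappaB and C/EBP factors, and both routes end at promoters of these genes. Fgl1 is a fibrinogen-like protein secreted by hepatocytes, induced by interleukin-6 in cultured human liver cells, and known in mouse and human as a ligand of LAG-3, an inhibitory receptor of T cells. In rats, A2m and Orm1 are classical strong responders, and Crp is made in quantity by healthy liver.

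The promoters of 6 members were at hand, in 7 windows that run from 250 bases before to 50 bases after the start. The 3 fibrinogen promoters and that of Orm1 are shown, since fibrinogen chains and Orm1 are textbook targets of the routes above and their levels are compared below. Sequences are from RefSeq (GRCr8), 5′ to 3′ on the gene's strand: Fgg at chr2:170652833-170653132 (plus), Fga at chr2:170671919-170672218 (plus), Fgb at chr2:170700826-170701125 (minus) and Orm1 at chr5:81788259-81788558 (plus). Capitals mark matches, on either strand, to CTGGGAA (core of an IL-6 response element of acute phase genes), TTCNNNGAA (a STAT palindrome) and TTGCNNAA (a C/EBP consensus).
Fgg: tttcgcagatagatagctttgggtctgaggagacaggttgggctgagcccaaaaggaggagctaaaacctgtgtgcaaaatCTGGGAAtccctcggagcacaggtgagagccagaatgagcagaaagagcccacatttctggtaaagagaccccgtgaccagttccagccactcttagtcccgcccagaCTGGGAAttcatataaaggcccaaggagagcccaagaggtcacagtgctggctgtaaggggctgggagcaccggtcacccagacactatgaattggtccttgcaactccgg
Fga: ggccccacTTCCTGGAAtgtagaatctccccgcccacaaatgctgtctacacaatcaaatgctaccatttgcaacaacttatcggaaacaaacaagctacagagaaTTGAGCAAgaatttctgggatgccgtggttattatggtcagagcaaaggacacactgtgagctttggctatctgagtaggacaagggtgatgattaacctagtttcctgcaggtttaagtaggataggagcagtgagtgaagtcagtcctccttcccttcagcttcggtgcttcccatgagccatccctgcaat
Fgb: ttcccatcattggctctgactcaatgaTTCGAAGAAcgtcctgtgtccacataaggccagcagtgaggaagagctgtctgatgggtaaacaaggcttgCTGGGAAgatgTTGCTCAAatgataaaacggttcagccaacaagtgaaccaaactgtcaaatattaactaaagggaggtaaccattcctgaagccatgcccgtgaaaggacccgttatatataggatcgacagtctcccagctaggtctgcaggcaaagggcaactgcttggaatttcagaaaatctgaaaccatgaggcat
Orm1: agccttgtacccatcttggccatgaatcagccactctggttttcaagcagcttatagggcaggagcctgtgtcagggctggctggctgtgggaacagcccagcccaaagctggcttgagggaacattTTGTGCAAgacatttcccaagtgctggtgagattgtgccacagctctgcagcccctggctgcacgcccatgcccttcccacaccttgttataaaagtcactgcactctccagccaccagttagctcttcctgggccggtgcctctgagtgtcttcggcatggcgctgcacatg

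Fgg, Fga and Fgb lie side by side on chromosome 2, with no annotated gene between them. CTGGGAA occurred 2 times in the Fgg window and 1 time in the Fgb window, against 11.3% of all 33469 windows with a match. TTCNNNGAA was found in the Fga and Fgb windows and in 8.87% of all windows. TTGCNNAA was found in the windows of Fga, Fgb, Orm1 and Cp and in 10.6% of all. The Fgb window held all of these motifs, with no overlap between matches, and the Crp window held none. These are matches of letters, not tested sites.

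None of the 10 genes passed the threshold (limma, adjusted p under 0.05 over all features) in any of the 5 comparisons of log ratios. In CC minus C, 0 of 10 members and 0% of all features were called, and 0 members and 0.956% of features had an unadjusted p under 0.05. In MM minus M the share called was 0%, with 1 member (Fgl1) and 1.77% of features at an unadjusted p under 0.05. In M minus C, 0 of 10 members were called against 4.09% of all features. Fgl1, Hp and Fga had an unadjusted p under 0.05 there, as did 17.3% of features. In MM minus CC, 0 of 10 members were called against 0.902% of all, and Orm1 and Crp were among the 11.2% of features with an unadjusted p under 0.05. The interaction, (MM minus M) minus (CC minus C), called 0% of features, with 1 member (Fgl1) and 1.65% of features at an unadjusted p under 0.05. In the liver channel alone 0 of 10 members were called in each of these comparisons, against 0.00902% of features in M minus C, 0.0361% in MM minus CC and 0% in the others. At an unadjusted p under 0.05, the liver channel held Fgl1 in MM minus M (1.34% of all features), in M minus C (8.39%) and in the interaction (1.56%), Fga in MM minus CC (6.67%), and no member in CC minus C (0.757%).

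**Figure D1:**
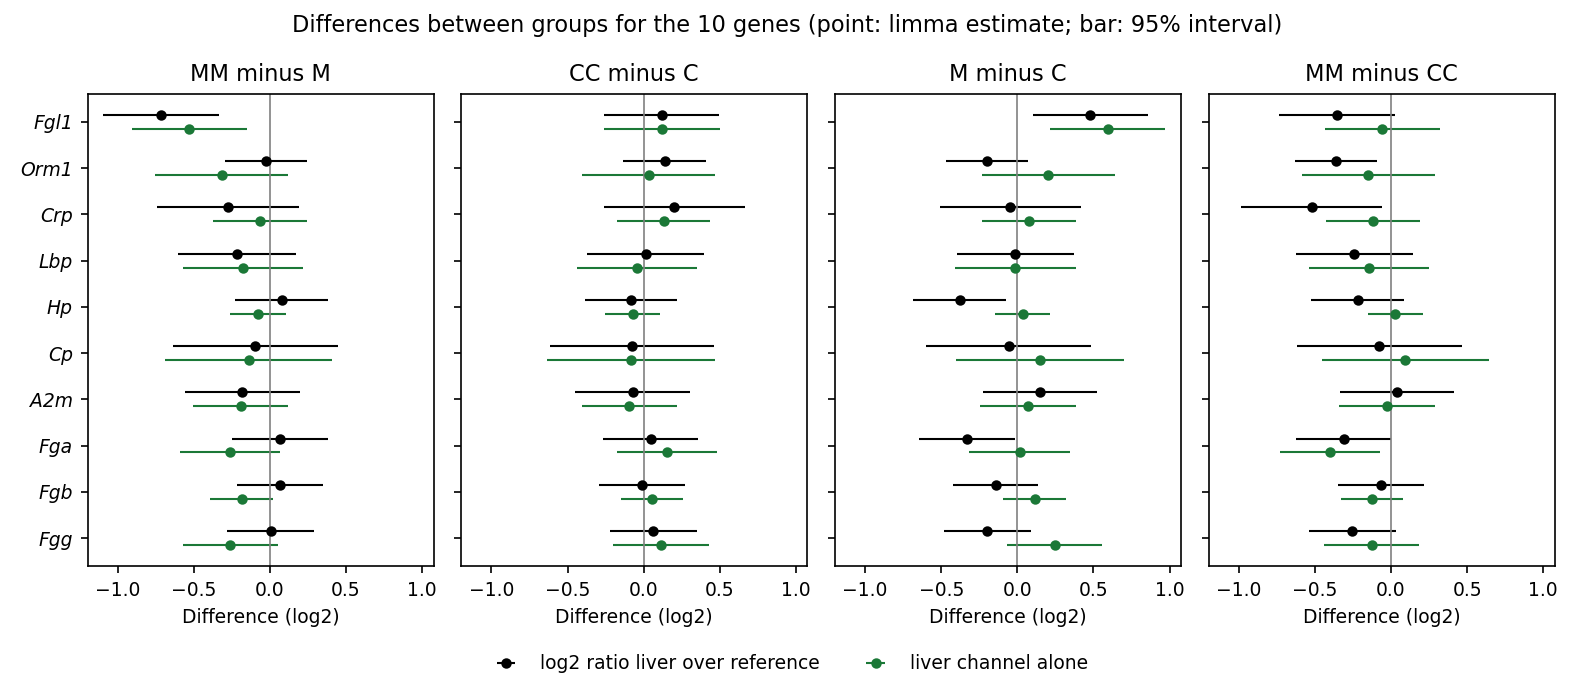
Differences of the 10 genes in each comparison (log2, limma, with 95% intervals), for the log ratio and for the liver channel alone. Among the group pairs Fgl1 in MM minus M is the largest difference in size at -0.72, and for MM minus M all 10 liver differences lie below 0.

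By mean log ratio Fgl1 was lowest in MM and highest in M. Its log ratio was 5.39, 5.51, 5.13 and 5.46 in the MM pools, against 5.91, 5.75, 5.89 and 6.80 in the M pools. Every MM pool lay below every M pool, and M replicate 8 stood well above the other M pools. The CC pools had 5.54, 5.70, 5.95 and 5.71, against 5.53, 5.79, 5.55 and 5.56 in the C pools, which overlapped. Means were 5.37 ± 0.17 in MM, 6.09 ± 0.48 in M, 5.73 ± 0.17 in CC and 5.61 ± 0.12 in C (SD, n = 4 arrays each). From high to low the order of means was M, CC, C and MM. M overlapped CC and CC overlapped C. MM, at 5.51 at most, and C, at 5.53 at least, nearly met, and that pair was not fitted. The reference channel of this probe was above background on 0 of 16 arrays and the liver channel on all 16, so liver exceeded the reference at least 47.0-fold, a bound. The log ratios of Fgl1 and the fits on them thus rest on a reference at or near background.

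**Figure D2:**
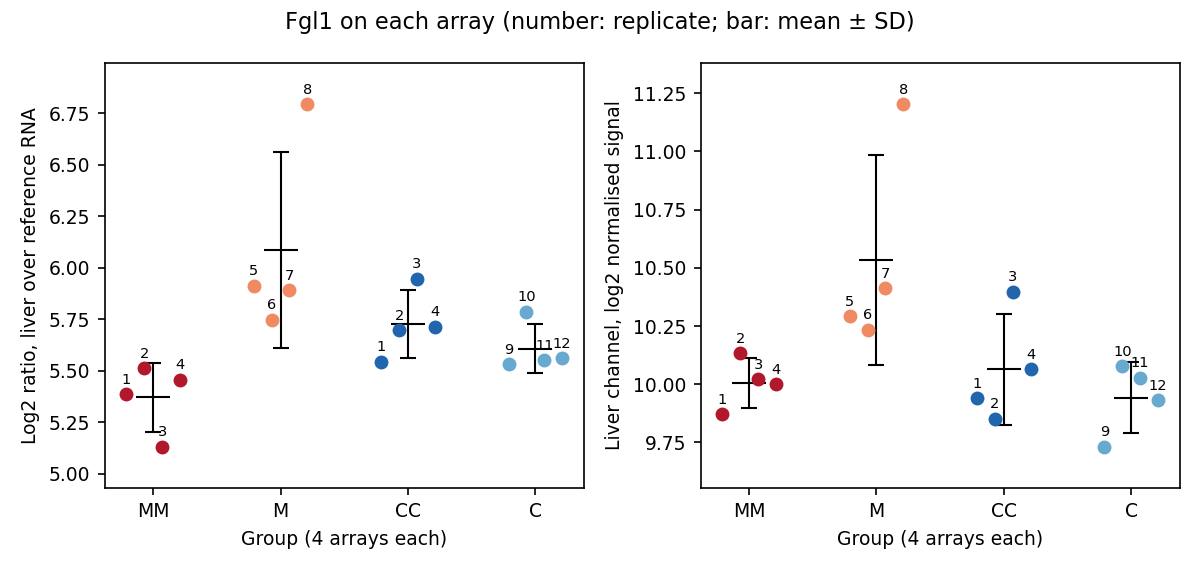
Fgl1 by array (log2 ratio of liver over reference, and liver channel), with a point per pool of 2 rats and bars for the group mean ± SD. The MM pools sit between 5.13 and 5.51 and the M pools between 5.75 and 6.80, with M replicate 8 highest.

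The fostering difference of Fgl1 in exposed rats, MM minus M, was -0.72 ± 0.18 (SE, 95% interval -1.10 to -0.34, limma adjusted p = 1.00). Of all features, 0.73% had every MM pool below every M pool. Over 32 alternatives the difference ran from -1.05 to -0.31 and the adjusted p from limma from 0.977 to 1.00. In unexposed rats CC minus C was 0.12 ± 0.18 (interval -0.26 to 0.50, limma adjusted p = 1.00). The difference between these differences was -0.83 ± 0.25 (interval -1.37 to -0.30, limma adjusted p = 1.00). Without M replicate 8, MM minus M was -0.48 ± 0.11 and the interaction was -0.60. The second slide row, which holds M replicate 8, gave -1.05 and the first row gave -0.38.

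The liver channel alone, with no reference in it, gave Fgl1 levels between 9.87 and 10.13 in the 4 MM pools, and of 10.29, 10.23, 10.41 and 11.20 in the M pools. CC had 9.94, 9.85, 10.40 and 10.06, and C had 9.73, 10.08, 10.03 and 9.93. The order of liver means was M, CC, MM and C, and the MM and C pools overlapped. The M pools again lay above all MM pools, as for 0.658% of features, and above all C pools, as for 3.3% of features. MM minus M was -0.53 ± 0.18 (limma adjusted p = 1.00), and -0.31 ± 0.12 without M replicate 8.

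Among exposed and unexposed rats that stayed with their mothers, M minus C for Fgl1 was 0.48 ± 0.18 (limma adjusted p = 0.162) as a log ratio and 0.59 ± 0.18 (limma adjusted p = 0.252) in the liver channel. Without M replicate 8 these were 0.24 ± 0.11 and 0.37 ± 0.12. In fostered rats MM minus CC was -0.35 ± 0.18 in the log ratio (limma adjusted p = 0.483), where every MM pool lay below every CC pool, as for 3.8% of features, and -0.06 ± 0.18 in the liver channel. M minus C and MM minus CC thus lay on opposite sides of 0 in the log ratio, while MM minus CC was near 0 in the liver channel. These 2 differences compare different pools.

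Orm1, alpha-1-acid glycoprotein, binds drugs and lipids in plasma. Its log ratio was 6.66, 6.38, 5.96 and 6.16 in MM, 6.27, 6.48, 6.24 and 6.28 in M, 6.71, 6.56, 6.74 and 6.60 in CC, and 6.74, 6.51, 6.45 and 6.37 in C. MM pools were the most spread, and the highest MM pool lay within the CC range. MM minus CC was -0.36 ± 0.13 (limma adjusted p = 0.251), with -0.25 when MM replicate 3 was left out and -0.15 ± 0.20 in the liver channel. The other 3 comparisons of Orm1 log ratios lay between -0.20 and 0.14. The liver level of Orm1, without M replicate 8, differed by -0.01 in M minus C, against 0.20 with it, and by -0.11 in MM minus M, against -0.32 with it.

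Crp, a pentraxin that binds phosphocholine on microbes and damaged cells, had log ratios of 4.39, 4.44, 3.61 and 4.06 in MM and 4.89, 4.62, 4.32 and 4.76 in CC. The M pools had 4.70, 4.67, 3.90 and 4.33, and the C pools 4.67, 4.76, 3.98 and 4.38. MM and CC overlapped, with 1 CC pool below the highest MM pools. The reference channel of Crp was above background on 1 of 16 arrays only, so its log ratios and the fits on them rest on a reference at or near background. MM minus CC was -0.52 ± 0.22 (limma adjusted p = 0.370), and -0.35 without MM replicate 3. With slide row as a block the same difference, -0.52 ± 0.14, had a limma adjusted p of 0.0493, where 4.07% of all features were called. In that fit, leaving out each array in turn kept the call in 4 of 16 cases (without C replicate 11, M replicate 8, CC replicate 2 or MM replicate 4), with adjusted p from 0.0341 to 0.142. Over all 33 alternatives of this difference the adjusted p ran from 0.0493 to 1.00. In the liver channel MM minus CC was -0.12 ± 0.14. The log ratio difference MM minus M was -0.28, and -0.10 without MM replicate 3.

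Lbp, which hands bacterial lipopolysaccharide to CD14, averaged 0.45 ± 0.12 in MM, 0.67 ± 0.46 in M, 0.69 ± 0.19 in CC and 0.68 ± 0.22 in C. M pools ran from 0.16 to 1.20, and M replicate 8 was the highest of all arrays. Its differences lay between -0.24 and 0.01. Its channel levels, normalized apart, averaged 7.96 to 8.14 in liver and 8.95 to 9.02 in the reference over the groups, so a log ratio above 0 for Lbp depends on the loess. MM minus M was -0.22 and M minus C -0.01, and without M replicate 8 they were -0.04 and -0.19.

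Among the transport and inhibitor proteins, Hp (haptoglobin, which captures free haemoglobin) was lower in M than in C. The M pools had 6.57, 6.68, 6.86 and 6.89, and the C pools had 6.87, 7.18, 7.41 and 7.07. The ranges met, since the highest M pool passed the lowest C pool. M minus C was -0.38 ± 0.14 (limma adjusted p = 0.172) for the log ratio. The same difference was 0.04 ± 0.09 for liver signal alone and 0.26 ± 0.09 for reference signal alone. Quantile normalization left the Hp liver level between 17.57 and 17.89, with ties among the C arrays, so that channel could show little difference. Raw liver signal of Hp ran from 155134.5 to 289492.5. The reference RNA was the same on all arrays, so its channel compares hybridisations, and 48.5% of features were called there in M minus C, Hp, A2m, Cp and Fgg among the members.

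Cp (ceruloplasmin, a copper-carrying ferroxidase) averaged 7.16 ± 0.46 in MM, 7.26 ± 0.47 in M, 7.24 ± 0.34 in CC and 7.32 ± 0.31 in C, and its comparisons lay between -0.10 and -0.06. Without M replicate 8, Cp was at 0.06 in MM minus M and -0.22 in M minus C, and without MM replicate 3 it was at -0.32 in MM minus M and -0.30 in MM minus CC. A2m, a broad protease inhibitor, was the one member whose log ratios lay below 0, at -1.79 ± 0.23 in MM, -1.61 ± 0.08 in M, -1.83 ± 0.43 in CC and -1.76 ± 0.22 in C. Its differences lay between -0.18 and 0.15, and without MM replicate 3 MM minus M was -0.28 and MM minus CC -0.06. A further A2m probe was above background in liver on 14 of 16 arrays and its differences lay between 0.01 and 0.05, while the other Cp probe was above background on 0 arrays.

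Fga, Fgb and Fgg encode the chains of fibrinogen, the clotting protein. Fga log ratios were 7.98, 7.72, 7.23 and 7.46 in MM, 7.58, 7.70, 7.36 and 7.49 in M, 7.99, 7.73, 7.93 and 7.98 in CC, and 7.97, 8.12, 7.59 and 7.77 in C. M lay from 7.36 to 7.70 and C from 7.59 to 8.12, which overlapped. M minus C was -0.33 ± 0.15 (limma adjusted p = 0.258), against 0.01 ± 0.15 in the liver channel, where it was -0.15 without M replicate 8. In the liver channel the MM pools of Fga, 14.19, 14.31, 14.00 and 14.42, all lay below the CC pools, 14.48, 14.55, 14.68 and 14.81, as for 1.51% of all features. That difference was -0.40 ± 0.15 (limma adjusted p = 0.574). In the log ratio it was -0.31, and -0.19 without MM replicate 3.

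Fgb averaged 7.38 ± 0.26 in MM, 7.31 ± 0.17 in M, 7.44 ± 0.21 in CC and 7.46 ± 0.07 in C. Fgg averaged 6.92 ± 0.32 in MM, 6.91 ± 0.16 in M, 7.17 ± 0.13 in CC and 7.11 ± 0.11 in C. Without MM replicate 3, MM minus CC was -0.12 for Fgg, against -0.26 with it. No Fgb or Fgg log ratio difference had a limma unadjusted p under 0.05.

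Counted together, signs depended on the scale for the exposure comparison. In M minus C, 2 members lay above 0 and 8 below in the log ratio (median -0.10, against -0.03 over all features), while in the liver channel 9 lay above and 1 below (median 0.10, against -0.01 over all). Without M replicate 8 the liver channel gave 5 above and 5 below, with a median of 0.02. In MM minus CC, 1 lay above and 9 below in the log ratio (median -0.25, against -0.02 over all features). In the liver channel 2 lay above and 8 below (median -0.12, against -0.003 over all). Without MM replicate 3 it was 0 above and 10 below on both scales, with medians of -0.25 and -0.07. In MM minus M, 4 lay above and 6 below in the log ratio, against 0 above and 10 below in the liver channel. The liver median was -0.19, against 0.001 over all features, with 2 above and 8 below without M replicate 8. CC minus C had 6 above and 4 below on both scales. The 15 hepatocyte markers also lay mostly below 0 in the log ratio, with 4 above and 11 below in MM minus CC (median -0.23). In M minus C they had 2 above and 13 below (median -0.19). In the liver channel their medians were -0.05 in MM minus CC and 0.05 in M minus C. M minus C and MM minus M share the M arrays, so their counts are not separate evidence.

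One pool stood apart in these genes. M replicate 8 had the highest liver level of all 16 arrays for 7 of the 10 members (Fgl1, Orm1, Fga, Fgb, Fgg, Cp and Lbp), as for 6.14% of all features. Scaled to the 75th percentile of each array in place of quantiles, this held for 8 members and 10.7% of features. Against the mean of the other M pools, its liver level was higher by 0.89 for Fgl1, 0.84 for Orm1, 0.78 for Lbp, 0.67 for Fga, 0.65 for Cp and 0.41 for Fgg. Crp ran the other way at -0.20, and A2m was at 0.00. Over the next-highest array, M replicate 8 was higher by 0.79 for Fgl1, 0.39 for Lbp, 0.27 for Fgg and 0.21 for Orm1. For Fga, Fgb and Cp this margin was 0.18, 0.05 and 0.01. M replicates 5 and 6 lay in the first slide row and M replicates 7 and 8 in the second. In liver, second minus first row was 0.61 for Cp, 0.32 for Lbp, 0.24 for Fgl1 and -0.28 for Crp, but 0.03 for Fga and for Orm1.

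**Figure D3:**
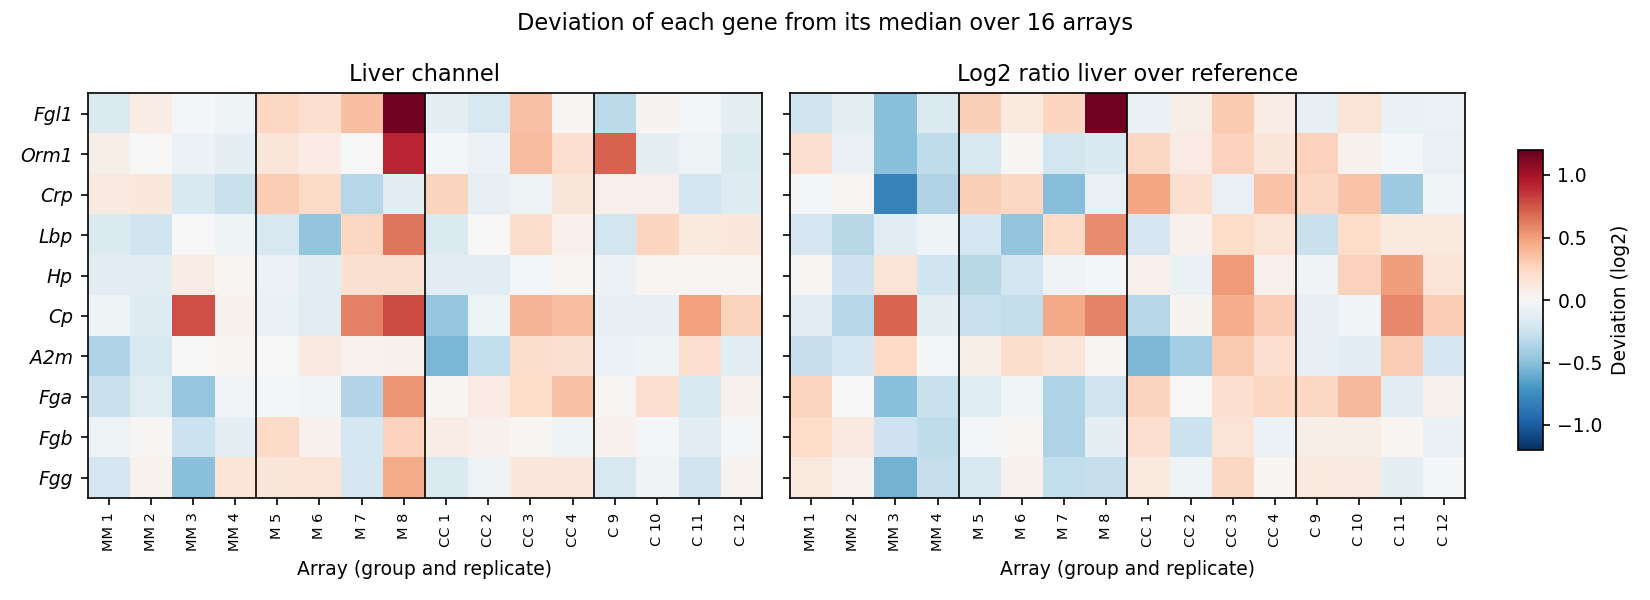
Deviation of each gene on each array from its median over the 16 arrays (log2, colour scale, liver channel and log ratio), with groups in the order MM, M, CC, C. M replicate 8 is high for most genes in the liver channel. Taken from each gene's mean over the 16 arrays, its median deviation over the 10 genes is 0.50 in the liver channel and -0.06 in the log ratio.

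The log ratio did not carry that pattern for all of them. M replicate 8 minus the mean of the other M pools was 0.94 for Fgl1, 0.72 for Lbp and 0.63 for Cp, but -0.05 for Orm1, -0.05 for Fga and -0.13 for Fgg. For Orm1, Fga and Fgg the reference channel of the same array was higher as well, by 0.73, 0.55 and 0.40, against 0.02 for Fgl1, 0.06 for Lbp and -0.07 for Cp. The reference RNA is a cell line pool shared by all arrays. Orm1 shows it most plainly: its reference level was 8.68 on M replicate 8 and 8.20 on C replicate 9, and 7.57 to 8.11 on the other arrays, and the same arrays had its highest liver levels, 13.76 and 13.54, against 12.66 to 13.21 elsewhere. What raised both channels was not tested.

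**Figure D4:**
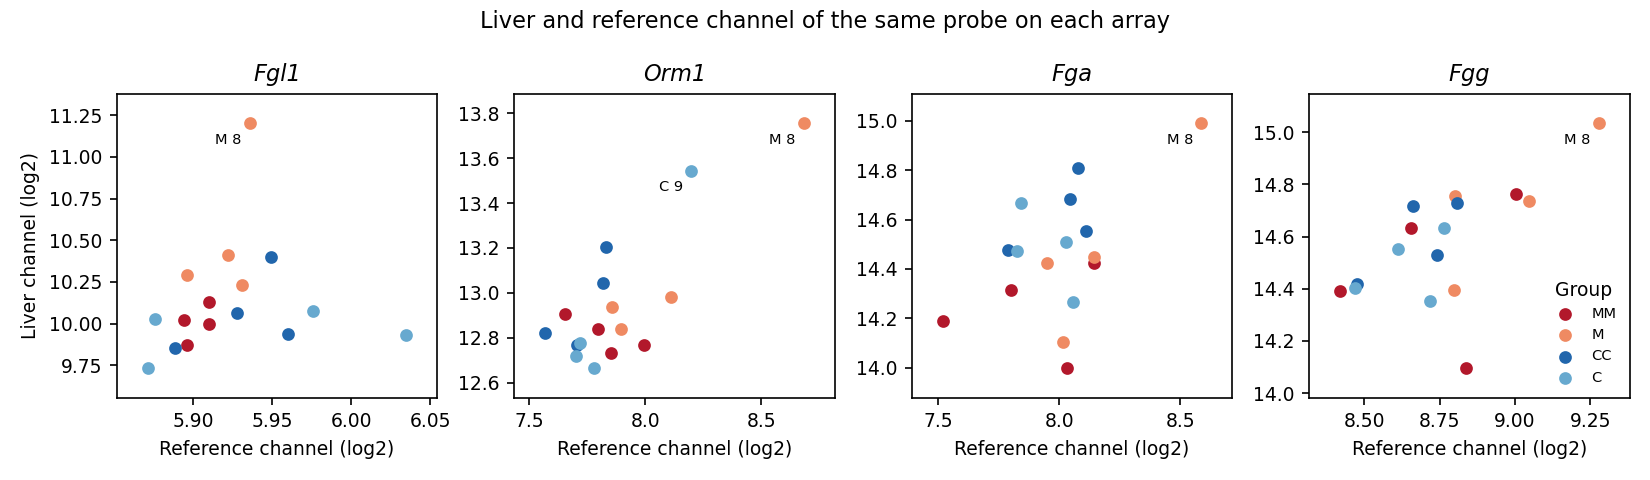
Liver level (vertical) against reference level (horizontal, both log2) of Fgl1, Orm1, Fga and Fgg on the 16 arrays, 1 point per array, coloured by group. M replicate 8 is high in both channels for Orm1, Fga and Fgg and in the liver channel alone for Fgl1, and C replicate 9 is high in both for Orm1.

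The same pool held the highest liver level of 14 of the 30 other positive acute phase genes, as for 6.14% of all features. Among them were Kng1 (a kininogen, 1.45 above the other M pools), Hamp (hepcidin, 1.03), Kng2 (0.84) and C4bpb (0.73). Over the next-highest of all arrays the margins were smaller, at 1.01 for Kng1, 0.47 for Kng2, 0.17 for C4bpb and 0.008 for Hamp. M replicate 8 was highest for 4 of 16 negative acute phase genes, 3 of 31 genes of IL-6, IL-1 and STAT3 signalling, 2 of 15 hepatocyte markers, 3 of 15 Kupffer cell and macrophage markers and 0 of 2 neutrophil markers. Among all features ranked by how far M replicate 8 exceeded the next array, Fgl1 was at rank 7 with 0.79, behind Kng1 with 1.01 and others. The reference channel of this array was higher as well for Kng1, Hamp, Kng2 and C4bpb, by 0.14, 0.68, 0.24 and 0.26. Their log ratios exceeded those of the other M pools by 1.20, 0.18, 0.49 and 0.37. For the rest of the 14, log ratios differed by -0.36 (Itih4) to 0.55 (Il1rn). As each array is a pool, the values do not show which rats, if any, carried the higher liver levels, and the cause was not tested.

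Slide row moved with many features on the arrays, these genes among them. Each slide had 2 rows, and each row held 2 arrays of each of its groups. In second minus first row, 7 of 10 members were called (limma, adjusted p under 0.05), against 42.8% of all features. Cp was 0.59 ± 0.10 higher in the second row (limma adjusted p = 0.000455) and Lbp and A2m were also higher, by 0.33 and 0.30. Crp (-0.47 ± 0.10, limma adjusted p = 0.00146), Fga (-0.25), Fgg (-0.20) and Orm1 (-0.19) were lower.

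**Figure D5:**
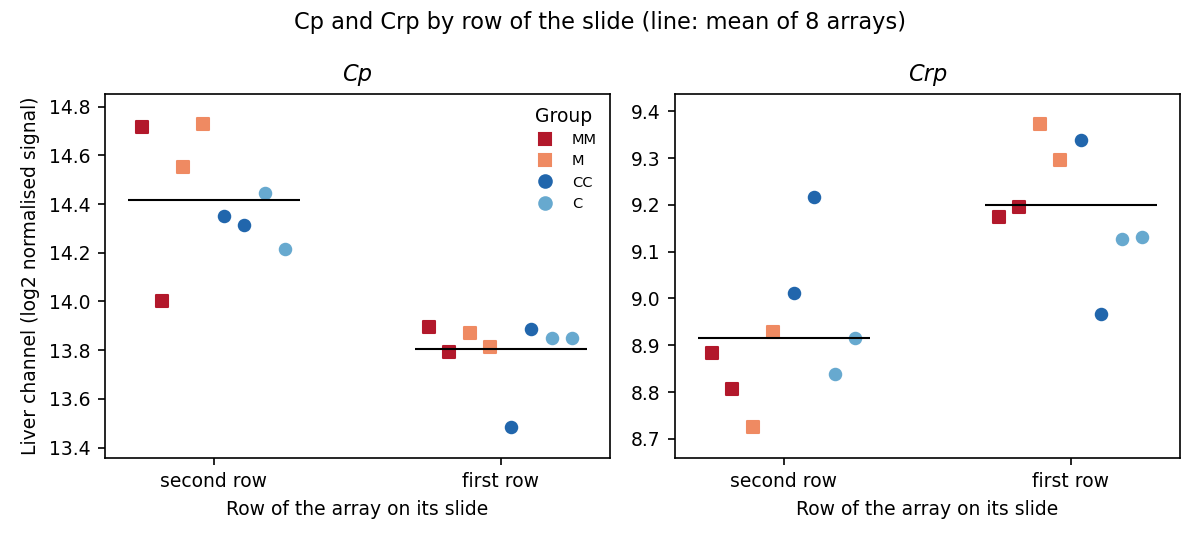
Liver levels of Cp and Crp (log2) by slide row, 1 point per array coloured by group, with squares for the slide of MM and M, circles for that of CC and C, and lines at the mean of 8 arrays. The liver level of Cp is 14.00 to 14.73 in the second row and 13.48 to 13.90 in the first, with no overlap.

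In the liver channel Cp was 14.72 and 14.00 in the second-row MM pools, against 13.90 and 13.79 in the first row. The M pools had 14.55 and 14.73 in the second row against 13.87 and 13.81 in the first. The CC pools had 14.35 and 14.31 against 13.48 and 13.89, and the C pools 14.44 and 14.22 against 13.85 and 13.85. Within every group both second-row pools were above both first-row pools, and rows did not overlap for 12.2% of all features. In that channel 5 of 10 members were called by row (Cp, Crp, Hp, Lbp and A2m), against 46% of all features. The row difference was 0.61 for Cp (limma adjusted p = 0.000184) and -0.28 for Crp, while it was 0.03 for Fga, 0.03 for Orm1 and 0.04 for Fgg. Fgl1 was 0.24 higher in the second row in the liver channel (limma adjusted p = 0.0941) and 0.12 higher in the log ratio (limma adjusted p = 0.486). The Fgl1 difference MM minus M was below 0 in both rows.

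The related gene lists are read against the shares of all features called. Of 30 other positive acute phase genes tested, 1 was called in M minus C, against 4.09% of all features, so the list's share is near the background. For C3, the central complement component, the log ratio difference was -0.41 ± 0.09 (limma adjusted p = 0.0164), against 0.02 for liver signal alone. C3 lost the call without C replicate 11 (adjusted p = 0.0549 by limma). The list had 8 above and 22 below 0 there (median -0.12), but 21 above and 9 below in the liver channel (median 0.16, and 0.08 without M replicate 8). In MM minus CC 0 were called, against 0.902% of all features, with 2 above and 28 below (median -0.21). In MM minus M, 10 lay above and 20 below, with Lcn2 (lipocalin, an iron-siderophore binder) at -0.52, Kng1 at -0.49 and C3 at 0.18. Without M replicate 8 Kng1 was at -0.19, and without MM replicate 3 the list had 15 above and 15 below. In CC minus C 18 lay above and 12 below, with Kng2 at 0.35, Apcs at 0.24 and Hamp at 0.21, and none in either comparison was called.

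Of 16 negative acute phase genes, whose output drops in inflammation, 1 was called in M minus C, against 4.09% of all features, a share near the background. For Tf, transferrin, the log ratio difference was -0.56 ± 0.15 (limma adjusted p = 0.0489), against -0.11 for liver signal alone. Tf kept the call in 4 of 16 fits that left out an array, the fit without M replicate 8 not among them. The list had 1 above and 15 below 0 (median -0.23), and 9 above and 7 below in the liver channel. In MM minus CC, 2 lay above and 14 below (median -0.21) with 0 called, against 0.902% of all features. In MM minus M, 12 lay above and 4 below, with Tf at 0.27, Apoc3 at 0.20 and Serpina6 at -0.37. Apoc3 was at 0.07 without MM replicate 3, and Serpina6 was at -0.22 without M replicate 8. In CC minus C, 7 lay above and 9 below, with Cps1 at -0.22, Alb (albumin) at -0.12 and Pon1 at 0.13, and none was called in either.

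Of 31 tested genes of IL-6, IL-1 and STAT3 signalling, 2 were called in M minus C, against 4.09% of all features, so the list's share is near the background. For the NF-kappaB subunits Nfkb2 and Rela the log ratio differences were 0.37 ± 0.08 (limma adjusted p = 0.0170) and 0.37 ± 0.09 (limma adjusted p = 0.0277). For liver signal alone they were 0.11 and 0.12, and neither was called. These calls held in 12 and 10 of 16 fits that left out an array, and without M replicate 8 the list held 1 call. Nfkb2 was also called in MM minus CC, the list's 1 call against 0.902% of all features, at 0.41 ± 0.08 (limma adjusted p = 0.0225), against 0.08 for liver signal alone, and in 9 of 16 such fits, with 0 calls in the list without MM replicate 3. Stat3 itself, the transcription factor of the route, was at -0.27 in MM minus M and was not called. Every MM pool of Stat3 lay below every M pool, as for 0.73% of all features. Il1b (-0.27) in MM minus M, and Bcl3 (0.46), Il6r (0.24) and Tnfrsf1b (-0.16) in CC minus C, were not called either. Of 31 binding partners, receptors and relatives of the members, 0 were called in any of the 4 comparisons, against 4.09% of all features in M minus C, 0.902% in MM minus CC and 0% in MM minus M and in CC minus C. Mug1, a relative of A2m, was at 0.25 and Plg, plasminogen, at 0.14 in MM minus M. C1qc was at 0.38 and Fcgr2b at 0.16 in CC minus C.

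Array-to-array likeness, taken over the 16 arrays on log ratios less their group means, set Fgl1 nearest to an unnamed probe (Pearson r = 0.83), Kng1 (r = 0.82) and Rab43 (r = 0.81). Without M replicate 8, Kng1 was at 0.60 and Rab43 at 0.52. In the liver channel Kng1 was nearest to Fgl1 at 0.91, and at 0.81 without M replicate 8. Nearest to Orm1 was Upb1 (0.95), to Crp Psmb3 (0.98), to A2m Phlda3 (0.92), to Hp Meox2 (0.94), to Fga Hrg (0.96) and to Fgg C4bpa (0.97), a regulator of complement. Fgb, Cp and Lbp were nearest to unnamed features, at 0.95, 0.96 and 0.94. In the liver channel Fga and Fgg were each other's nearest at 0.89. These arrays share slides, rows and the reference RNA, so the coefficients are descriptions.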

How the data were processed

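Liver of 4 groups was measured on 16 arrays. Per the file headers, the authors deposited each spot's median intensity and its background in both dyes, from Agilent Feature Extraction 11.0.1.1 (array design 028279). Per the file headers, the same files also hold the authors' log10 ratio of red over green. The authors' deposited value table was taken as log2, liver over reference, from its fit to the scanner values, and its centring is unknown. The plan named mean signals, but medians were present and were used.

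Intensities were corrected with normexp (offset 50) and loess in limma 3.58.1 (R 4.3.3), with outlier spots left out, 732 to 1138 per array. Of 30367 probes, 18005 were given a symbol through the RefSeq table of GRCr8. The brightest probe per name was kept, and tested if well above background in liver on at least 3 of 4 arrays of a group. limma was fitted with 4 group means on 16 arrays, and features were called under 0.05 after Benjamini-Hochberg adjustment. The liver channel was also fitted alone after quantile normalization. Pools are the replicates, and p-values set a group difference against the spread between arrays within groups. That spread also holds differences between slide rows and hybridisations. In M minus C and MM minus CC the difference itself also holds the slide.

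Members and lists were chosen with earlier results of these data known. Named genes were all members, the called genes of each list, the lowest p in CC minus C and MM minus M, and the features most alike to each member. A few results that this rule names are not reported here. CC and MM share replicate numbers, and same-numbered arrays, which also share a slide row, deviated together (r = 0.56, 0.16, 0.58 and 0.19). CC and MM arrays of the same row with different numbers did so as well (r = 0.44, 0.23, 0.33 and 0.16). Pairs from different rows all had a negative r, from -0.57 to -0.03. The values thus followed the row, and pairing by number was not tested apart from it. The number of arrays and signal over background limit precision.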

Additional observations from a re-analysis of the deposited data

Results flagged for a closer look

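In 6 of 80 sets of 4 arrays, 1 array lay far from the other arrays of its group, with the gap to its nearest neighbour given here as a share of the group's range. Chance flags about 1 in 20 such sets. For Fgl1 in the log ratio these were M replicate 8 (highest, 0.843) and C replicate 10 (highest, 0.888). For Orm1 they were M replicate 6 (highest, 0.854) in the log ratio, and M replicate 8 (highest, 0.844) and C replicate 9 (highest, 0.873) in the liver channel. For Hp in the liver channel C replicate 9 was lowest (1), where the other 3 C arrays were tied after quantile normalization.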

How the results depend on the processing

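The number of members called stayed at 0 in all 5 comparisons under the alternatives run, with 1 exception. In MM minus CC it was 1 (Crp) with slide row as a block, a setting in which the spread between rows is removed. Leaving out each array gave 0 to 0 members called. With the replicate block on CC and MM, 0 members were called and 136 features, against 100 without it, and no other member's call changed. Counts over all features moved more. M minus C called 454 features, against 1366 with the scanner log ratio, 816 with array weights, 1199 with slide row as a block, 187 and 4 in the first and the second row alone, 1 in the liver channel and 0 there at 75th percentile scaling. Leaving out an array gave 215 (M replicate 8) to 531 (MM replicate 3). MM minus CC called 100, against 491 with the scanner log ratio, 451 with slide row as a block, 182 with median centring, 65 and 1 in the rows alone, and 4 and 0 in the liver channel. Leaving out an array gave 36 to 111. The cause was not tested. The 75th percentile scaling, the liver channel without M replicate 8 or MM replicate 3, the second minus first row comparison, the liver likeness, the leave-outs of the Crp row block fit and those of the gene lists were chosen after seeing the data. Members called also stayed at 0 in these fits, apart from the row comparison and the Crp fits given above.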
